A study of Homo sapiens with 4 samples.

Results

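Some stretches of the genome belong to more than 1 gene on the same strand, and a crosslinking peak there is listed once under each of them. These intervals were collected here from the peak lists of FLAG-tagged ZFR, as intervals with the same chromosome, start, end and strand on 2 or more lines with different gene identifiers, each counted once. They numbered 18625 of 458932 distinct intervals in eCLIP replicate 1 and 2493 of 39168 in eCLIP replicate 2, against 2638 of 60227 in input 1 and 646 of 10483 in input 2. Over the 4 libraries that made 24402 of 568810 intervals.

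ZFR carries zinc fingers and a DZF domain and binds RNA. Enhanced crosslinking and immunoprecipitation (eCLIP) reads out pieces of RNA crosslinked to such a protein by ultraviolet light. The size-matched input takes crosslinked RNA from the same range of sizes, but skips the pull-down. The 2 eCLIP libraries and the 2 inputs all came from polyclonal Flp-In T-REx-293 cells, which descend from the human embryonic kidney line HEK293. In all 4, FLAG-ZFR was stably integrated at the FRT site, and the cells had doxycycline (1 µg/mL, 48 to 72 h) before crosslinking at 400 mJ/cm2. The transgene comes in addition to the cells' own ZFR gene, and the inputs carry it too.

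Same-strand overlap of genes arises in several known ways. A small gene, often for a noncoding RNA, can lie inside an intron of a host gene. A read-through transcript can begin in 1 gene and run through the next, and annotation then gives it an identifier of its own that covers both. Gene clusters can share their last exons, so that every member of the cluster covers the same end. A read from such a place cannot be assigned to 1 of the genes by its position alone, and all results below are about places, not about which gene was transcribed.

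Libraries differed in 2 ways that touch the results. The list of eCLIP replicate 1 was by far the longest. In input 1, 38.9% of the members on the minus strand touched the next member, against 6.95% on the plus strand, while the highest value in any other library was 3.41%. Touching intervals raise the number of intervals of input 1 on the minus strand.

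The lines of 1 interval repeated 1 measurement. The reads were the same on all lines for 18623 and 2492 members of the eCLIP libraries and for 2636 and 646 members of the inputs, which left 2, 1, 2 and 0 exceptions. The position inside the peak differed in 8 and 2 members of the eCLIP libraries and in 3 and 0 of the inputs. The authors' p-value, by contrast, depended on the gene. It differed between the lines of 89.2% and 96.4% of members in the eCLIP libraries and of 98.6% and 98.8% in the inputs. Where it differed, the higher p was a median of 1.42 and 1.15 times the lower one in the eCLIP libraries and 1.02 and 1.07 times in the inputs. In eCLIP replicate 1 the ratio was over 10 for 1960 members (11.8% of those with differing p-values), and for 95 (3.95%) in eCLIP replicate 2. For the inputs these numbers were 25 (0.961%) and 32 (5.02%). The same reads at the same place thus lay on both sides of a p-value limit of 0.001 in 1063 and 81 members of the eCLIP libraries and in 39 and 13 of the inputs.

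The first comparison asked whether a larger share of eCLIP than of input intervals lay in shared stretches. The groups interleaved, and members made up 4.06% (95% interval 4.00 to 4.12) and 6.36% (6.13 to 6.61) of the intervals of the eCLIP libraries, against 4.38% (4.22 to 4.55) and 6.16% (5.72 to 6.64) in the inputs. The means were 5.21% ± 1.63 for eCLIP and 5.27% ± 1.26 for input (SD, n = 2 each), a difference of -0.0596 percentage points (exact permutation test, p = 1). The libraries numbered 2, which had the shorter lists of each kind, were both above the libraries numbered 1. The direction depended on which peaks were counted. When every line needed a p-value of at most 0.001, the eCLIP shares were 4.73% and 5.92% and the input shares 4.08% and 4.62%, so that both eCLIP values lay above both inputs (difference 0.98, exact permutation test, p = 0.33, the smallest this design allows). In lists of the best-ranked 10483 intervals of each library, chosen once the data had been seen, they were 6.76% and 6.90% against 4.48% and 6.16%, with the same p. That ranking used the lower p-value of a member's lines, so a member had more than 1 chance to rank well, and it kept the whole list of input 2.

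**Figure D1:**
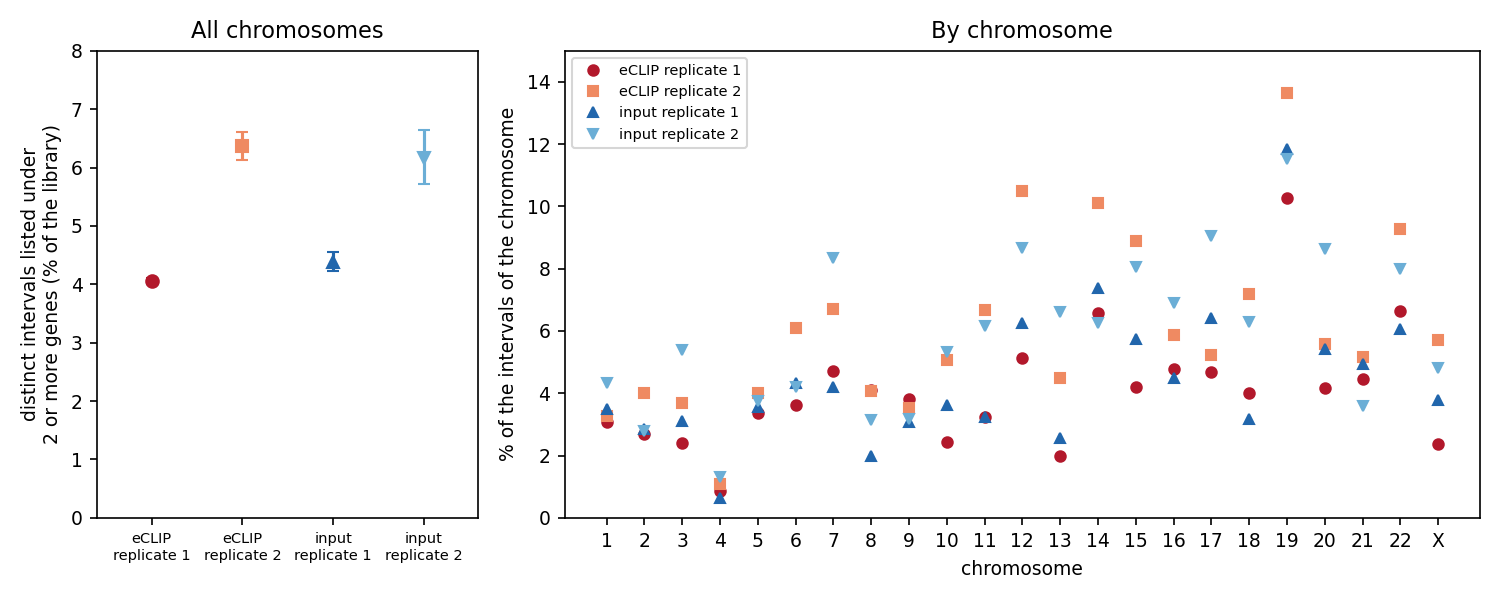
Share of distinct intervals listed under 2 or more genes, for each library (left, bars are Wilson 95% intervals) and for each chromosome and library (right). The 2 eCLIP libraries and the 2 inputs interleave at left, between 4.06% and 6.36%, and among the autosomes and X shown at right chromosome 19 has the highest share and chromosome 4 the lowest in all 4 libraries.

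Among the autosomes and chromosome X, chromosome 19 had the highest share of members in every library and chromosome 4 the lowest. There 10.3% and 13.6% of the intervals of the eCLIP libraries were members, against 11.9% and 11.5% in the inputs. On chromosome 4 the share was 0.853% and 1.09% of eCLIP intervals and 0.641% and 1.31% of input intervals. Chromosome 14 (6.58% and 10.1% against 7.39% and 6.25%) and chromosome 22 (6.66% and 9.27% against 6.05% and 7.99%) also lay above the share of the whole library in each list. So did chromosome 12 (5.12% and 10.5% against 6.26% and 8.67%) and chromosome 15 (4.20% and 8.90% against 5.74% and 8.06%). Across the 23 chromosomes, which are points that share a library, the shares of the 2 eCLIP libraries correlated at r = 0.855 and those of the 2 inputs at r = 0.787. Between an eCLIP library and an input, r lay between 0.696 and 0.910, so the order of chromosomes did not set the groups apart. On the mitochondrial chromosome, which contributed 237 and 132 intervals to the eCLIP lists and 78 and 86 to the inputs, 0 were members. Counts of 0 there allow shares of up to 1.27% and 2.27% for eCLIP and 3.85% and 3.49% for the inputs.

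Most members were listed under 2 genes. In eCLIP replicate 1 there were 17152 intervals with 2 genes, 1382 with 3, 70 with 4 and 21 with 5 or more. The corresponding numbers were 2273, 213, 4 and 3 for eCLIP replicate 2. For the inputs they were 2439, 195, 4 and 0 (input 1) and 575, 68, 2 and 1 (input 2). Over the 4 libraries, members fell in 1987 gene sets, of which 1817 joined 2 genes and 170 joined 3 or more, and they involved 3391 of the 17764 genes listed. Only 180 gene sets had a member in all 4 libraries, and 1032 had members in 1 library.

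The longest list of genes for 1 interval came from the plus strand of chromosome 5 (hg19). In eCLIP replicate 1, 15 intervals between 140777638 and 140892281 were listed under 12 to 20 genes each. The number of genes grew along the strand: 12 for the 4 intervals up to 140780210, 18 for those from 140827804 to 140850311, and 20 for the last, from 140892258 to 140892281. Every one of the 15 rested on 3 reads except the interval from 140791103 to 140791136, which had 4. In eCLIP replicate 2 a single interval with 3 reads, from 140836535 to 140836561, was listed there, under 18 genes. Each input had 1 interval in the same 21 genes, with 4 reads in input 1 and 5 in input 2, and neither was listed under 10 or more of them. The 15 were all the intervals listed for these 21 genes in eCLIP replicate 1.

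Gene pairs were described by their spans, the stretch from the first to the last peak listed for a gene over the 4 libraries. Of 2341 pairs that shared at least 1 interval, 1583 (67.6%) were nested, with the span of 1 gene inside that of the other. In those pairs the longer span had a median of 75203 bases and the shorter a median of 2004 bases. Another 535 pairs (22.9%) were staggered, with spans that overlapped in part and medians of 47697 and 18358 bases. The remaining 223 (9.53%) had identical spans, with a median of 1746 bases. A span drawn from peaks can be shorter than the annotated gene, so these classes describe the peaks and not the annotation.

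Nested pairs held most members with 2 genes in every library. Among members with 2 genes, nested pairs held 58.5% and 57.9% in the eCLIP libraries, against 60.7% and 56.2% in the inputs. Staggered pairs held 34.7% and 37.7% against 32.3% and 34.4%, with both eCLIP values above both inputs. Identical spans held 6.74% and 4.40% against 7.01% and 9.39%, with both eCLIP values below both inputs. Exact permutation tests gave p = 1 for nested pairs and p = 0.33, the smallest possible, for each of the other classes (differences -0.205, 2.84 and -2.63 percentage points). In nested pairs the longer gene mostly had the lower p-value for the shared interval, in 65.3% and 75.2% of intervals in eCLIP and in 74.1% and 78.9% in the inputs. The shorter gene had the lower one in 24.5% and 21.4% of them in eCLIP and in 24.5% and 19.5% in the inputs.

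A gene that shared intervals with 2 others, whose own spans did not meet and which shared no interval with each other, was counted as a bridging gene. This is the layout a read-through identifier gives, though the peaks alone do not show that any read-through transcript was made. There were 338 bridging genes, and 81 of them shared at least 10 intervals with each partner. Members listed under a bridging gene made up 47.1% (46.4 to 47.8) and 49.3% (47.3 to 51.2) of members in the eCLIP libraries, against 46.3% (44.4 to 48.2) and 48.6% (44.8 to 52.5) in the inputs, and all 4 intervals overlapped one another in part. One such gene lay on the minus strand of chromosome 10. There 1 identifier shared 135 and 4 intervals of the eCLIP libraries and 19 and 0 of the inputs with a partner between 126307919 and 126431997. With a second partner, between 126437377 and 126478869, it shared 102 and 26 intervals of the eCLIP libraries and 9 and 2 of the inputs. On the minus strand of chromosome 12 a bridging gene shared 44 and 13 intervals against 19 and 0 between 133305629 and 133338318, and 59 and 10 against 14 and 3 between 133345782 and 133404855. Another, on chromosome 9 (plus strand), shared 68 and 0 eCLIP intervals against 2 and 0 input intervals with the partner from 21805246 to 21902319, and 45 and 1 against 5 and 0 with the one from 21995087 to 22032494. Each of these 3 genes had more than 40 shared intervals of eCLIP replicate 1 on either side.

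In 3 of the 4 libraries, most lines of the genes concerned were shared. Of the lines of genes with at least 1 member, 36.9% in eCLIP replicate 1 and 61.3% in eCLIP replicate 2 were members, against 60.0% in input 1 and 76.8% in input 2. Every line was a member for 1155 of 2947 such genes in eCLIP replicate 1 and 843 of 1207 in eCLIP replicate 2, against 1013 of 1530 in input 1 and 609 of 743 in input 2. The longer a list, the smaller this share was, both within eCLIP and within the inputs. Conversely, not every interval inside overlapping spans was listed under both genes. Of the intervals whose midpoint lay in the spans of 2 or more genes of the same strand, 73.1% and 89.6% were members in the eCLIP libraries, against 85.6% and 70.0% in the inputs.

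Members rested on few reads, as other intervals did. The median was 5 and 4 reads in the eCLIP libraries and 3 in each input, while intervals of 1 gene had medians of 4 and 3 in eCLIP and 3 and 4 in the inputs. The highest number of reads of a member was 438 and 65 in eCLIP and 82 and 99 in the inputs. The share of members with 3 reads, the lowest number in the lists, was 26.5% (25.9 to 27.2) and 48.3% (46.3 to 50.2) in eCLIP, against 63.0% (61.1 to 64.8) and 50.9% (47.1 to 54.8) in the inputs. Both eCLIP shares lay below both input shares, though the 95% intervals of the libraries numbered 2 overlapped (exact permutation test, p = 0.33, the smallest this design allows). Members with over 10 reads made up 11.8% and 5.01% in eCLIP and 0.834% and 7.74% in the inputs, and here the groups interleaved.

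**Figure D2:**
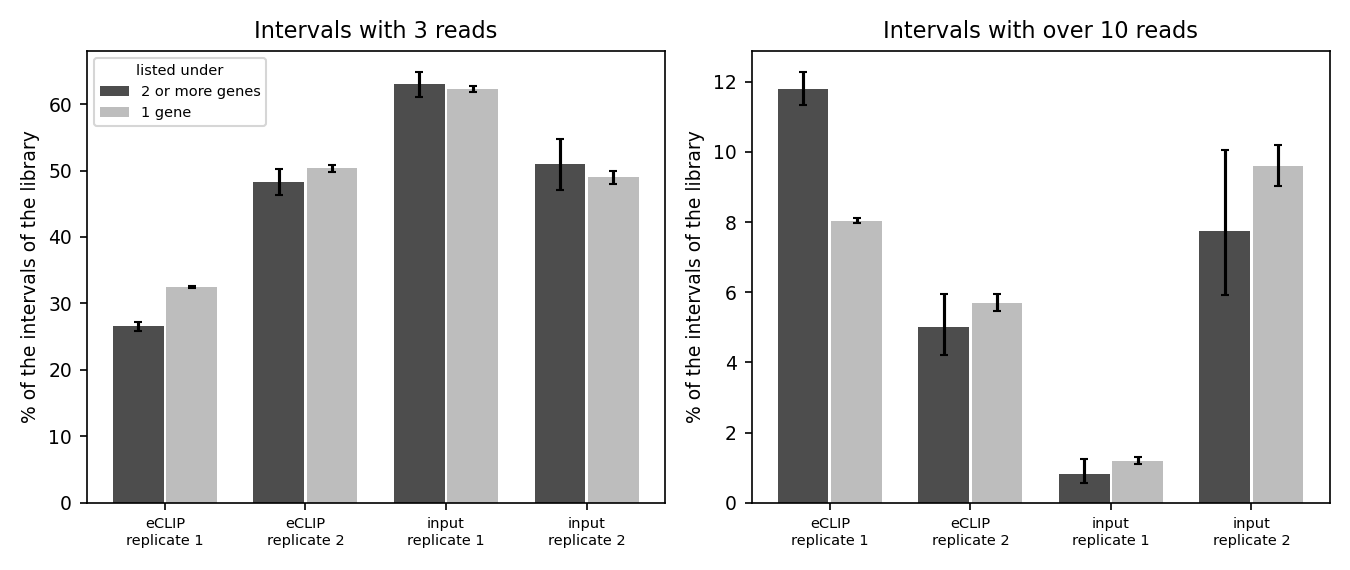
Share of intervals with 3 reads (left) and with over 10 reads (right) in each library, for intervals listed under 2 or more genes (dark bars) and under 1 gene (light bars), with Wilson 95% intervals. In eCLIP replicate 1 alone the 95% intervals of the dark and light bars do not overlap, at 26.5% against 32.5% and 11.8% against 8.04%.

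Set against intervals of 1 gene in the same library, members differed in reads beyond counting error in eCLIP replicate 1. There 26.5% of members and 32.5% (32.3 to 32.6) of intervals of 1 gene had 3 reads, and 11.8% (11.3 to 12.3) against 8.04% (7.96 to 8.12) had over 10. In eCLIP replicate 2 the shares with 3 reads were 48.3% (46.3 to 50.2) and 50.3% (49.8 to 50.8). The 95% intervals overlapped there, though the share for 1 gene lay outside the interval of members. In input 1 the shares were 63.0% and 62.3%, and in input 2 they were 50.9% and 49.0%, with overlapping 95% intervals in each. Over the 4 libraries the difference in the share with 3 reads was -1.34 percentage points (exact sign-change permutation test, p = 0.625). Mean reads per interval were lower in members in all 4 libraries, at 6.40 and 4.83 against 6.42 and 5.57 for intervals of 1 gene in eCLIP, and at 3.79 and 5.34 against 3.97 and 9.63 in the inputs (exact sign-change permutation test, p = 0.125, the smallest it can give). The mitochondrial chromosome, without members and with the interval of most reads in 3 of the 4 libraries, entered only the means of intervals of 1 gene. Without it those means were 6.18 and 5.05 in eCLIP and 3.90 and 6.53 in the inputs, so that the mean of members lay above them in eCLIP replicate 1. Median width was 28 bases for members and for intervals of 1 gene in 3 libraries. In input 2 it was 33 bases for members and 28 for intervals of 1 gene.

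The strongest members found in both eCLIP libraries lay at 2 places. On the plus strand of chromosome 1, the interval from 109642926 to 109642983 had 438 reads in eCLIP replicate 1. An interval of 45 reads from 109642868 to 109642974 overlapped it in eCLIP replicate 2. Input 1 had 2 overlapping intervals, the larger with 43 reads, and the strongest member of input 2, with 99 reads, ended just upstream at 109642922. This place was therefore covered in all 4 libraries. The other 4 of the 5 strongest lay close together on the plus strand of chromosome 12, each listed under a nested pair of genes. The interval from 54679395 to 54679458 had 304 reads in eCLIP replicate 1 and met one of 65 reads in eCLIP replicate 2, against 0 overlapping intervals in input 1 and 1 of 3 reads in input 2. The interval from 54679285 to 54679345 had 209 and 22 reads in the eCLIP libraries, against 3 reads in input 1 and no overlapping interval in input 2. The intervals from 54679026 to 54679062 and from 54679063 to 54679102 had 139 and 128 reads in eCLIP replicate 1, both met the same interval of 21 reads in eCLIP replicate 2, and neither was met in an input. The p-value of such an interval again depended on the gene. For the interval of 209 reads the authors gave 5.07e-285 under 1 gene and 2.65e-128 under the other.

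The next comparison asked how many members lay at the same place in both eCLIP libraries. Of the members of eCLIP replicate 2, 846, or 33.9% (32.1 to 35.8), overlapped an interval of eCLIP replicate 1, and for intervals of 1 gene this was 32.9% (32.5 to 33.4). The share rose with reads, and was 28.0% (25.5 to 30.6) for members with 3 reads, 37.2% (33.8 to 40.6) with 4 to 5, 41.2% (36.3 to 46.2) with 6 to 10 and 48.8% (40.2 to 57.5) with over 10. Members of eCLIP replicate 2 met input 1 in 3.45% (2.80 to 4.24) and input 2 in 6.50% (5.60 to 7.53) of cases. For intervals of 1 gene these shares were 3.57% (3.39 to 3.77) and 5.00% (4.78 to 5.23). Members of input 2 met the long list of eCLIP replicate 1 in 33.0% (29.5 to 36.7) of cases, and intervals of 1 gene of input 2 did so in 23.9% (23.1 to 24.8). Members of input 2 met eCLIP replicate 2 in 25.4% (22.2 to 28.9) of cases, against 18.1% (17.4 to 18.9) for intervals of 1 gene. Among members with over 10 reads this was 44% (31.2 to 57.7). Members of input 2 met input 1 in 15.2% (12.6 to 18.1) of cases, against 18.8% (18.1 to 19.6) for intervals of 1 gene. With over 10 reads these last shares were 80% (67.0 to 88.8) of 50 members and 75.5% (72.7 to 78.2) of intervals of 1 gene, within counting error of each other.

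In eCLIP replicate 1, 716 members (3.84%, 3.58 to 4.13) were found again in eCLIP replicate 2, against 2.87% (2.82 to 2.92) of intervals of 1 gene. Among intervals with over 10 reads these shares were 352 of 2197 members (95% interval 14.5% to 17.6%) and 17.2% (16.9 to 17.6) of intervals of 1 gene. With 3 reads they were 0.647% (0.459 to 0.912) and 0.542% (0.505 to 0.581). Members lay higher, with separate 95% intervals, at 4 to 5 reads, with 1.82% (1.53 to 2.18) against 1.31% (1.25 to 1.37). The same held at 6 to 10 reads, with 4.29% (3.76 to 4.89) against 3.62% (3.51 to 3.74). Of the 716, 617 met neither input, and of the 12647 intervals of 1 gene found again in eCLIP replicate 2, 10763 met neither. Counted the same way, 215 members of eCLIP replicate 1 were found only with input 1 and 65 only with input 2, while 12 members of eCLIP replicate 2 were found only with input 1 and 66 only with input 2. For the 2 inputs the number was 53. These numbers move with the length of the lists, which ran from 10483 to 458932 intervals. Members were 5.42% of the intervals of eCLIP replicate 1 found in eCLIP replicate 2 and neither input, against 4.84% of the intervals of input 1 found in input 2 and neither eCLIP library. In the mixed pairs this share was 4.08% and 5.36% for eCLIP replicate 1 with inputs 1 and 2, and 4.76% and 7.76% for eCLIP replicate 2 with inputs 1 and 2, so the values of the mixed pairs lay on both sides of the others. The 617 fell in 270 gene sets, 148 of which held 1 and 5 of which held 10 or more. They had a median of 9 reads and a median width of 33 bases, as did the 10763 intervals of 1 gene found in the same way. On chromosome 19 lay 23.2% of the 617, against 13.6% of all members of eCLIP replicate 1, and 9.90% of those intervals of 1 gene, against 5.02% of all intervals of 1 gene. Of the 550 listed under 2 genes, 59.5% lay in nested pairs, against 58.5% of all members of eCLIP replicate 1 with 2 genes.

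The 5 gene sets with most of these 617 intervals held 10 or 11 each. On the minus strand of chromosome 19, the pair between 1579813 and 1592624 held 11 of them. It listed 40 and 25 eCLIP members against 10 and 4 input members (0.872 and 6.38 versus 1.66 and 3.82 per 10000 intervals), so that the groups interleaved. By reads in its members the pair took 3.74 and 7.95 per 10000 eCLIP reads against 1.85 and 1.43 per 10000 input reads, and both eCLIP libraries lay above both inputs. On the minus strand of chromosome 12, the pair between 110825369 and 110841410 behaved alike, with 0.959 and 5.62 against 0.996 and 4.77 per 10000 intervals and 2.01 and 6.56 against 0.965 and 1.94 per 10000 reads. The other 3 were on chromosomes 15, 19 and 10 and are among the sets described next.

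The last comparison asked for which gene sets the share of intervals was higher or lower in eCLIP than in input. Of the 1987 multi-gene sets, 581 had at least 10 intervals over the 4 libraries and were tested together with all sets of a single gene. In limma 0 of the 581 were higher and 0 lower after adjustment (lowest adjusted p = 0.993), and over all 8707 sets 0% were called in either direction. At an unadjusted p under 0.05, 12 multi-gene sets (2.07%) were higher and 1 (0.172%) lower, against 1.26% higher and 0.643% lower over all sets. The eCLIP shares were both higher than both input shares in 146 multi-gene sets (25.1%), where the share over all sets was 20.7%, and below both in 48 (8.26%), where it was 9.97%. The median log2 difference of eCLIP minus input was 0.23 for multi-gene sets and 0.17 for all sets, and it depended on the settings. It was 0.031 for both with no filter, and 0.15 and 0.14 with a filter of 5 intervals. With a pseudocount of 0.1 it was 0.57 and 0.43, and with a pseudocount of 1 it was 0.14 and 0.10. At p-values of at most 0.001 it was 1.25 and 0.85. Without eCLIP replicate 1 it was 0.64 and 0.20, and without input 2 it was 0.17 and -0.057. Multi-gene sets lay below all sets without eCLIP replicate 2, at 0.24 and 0.36, and without input 1, at 0.47 and 0.50. Input 2 had no interval in 355 of the 581, so many of these values rest on the pseudocount. The number of calls turned on single libraries. It moved from 0 without eCLIP replicate 2 and without input 2, in fits that leave 1 library in a group. Their calls are not counted here, as a lone library gives its group no spread of its own.

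By arrangement, both eCLIP shares lay above both inputs in 76 of 314 nested pairs (24.2%), 51 of 185 staggered pairs (27.6%) and 11 of 37 pairs with identical spans (29.7%). For the 45 sets of more than 2 genes the number was 8 (17.8%), and over all 8707 sets the share was 20.7%. Both eCLIP shares lay below both inputs in 24 nested pairs (7.64%), 12 staggered pairs (6.49%) and 5 pairs with identical spans (13.5%). This order was found in 7 sets of more than 2 genes (15.6%) and in 9.97% of all sets. The median log2 differences were 0.26 for nested and 0.26 for staggered pairs, against 0.03 for identical spans and 0.10 for sets of more than 2 genes. Differences between these classes were not tested.

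**Figure D3:**
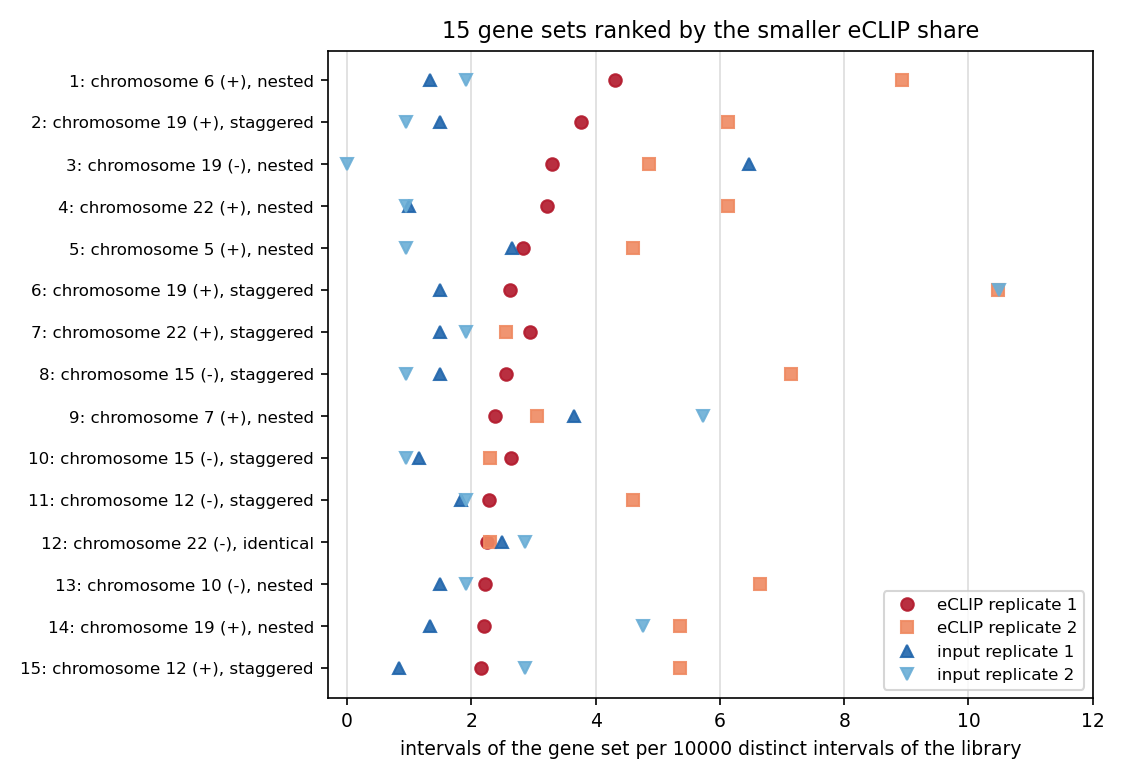
Intervals per 10000 distinct intervals of each library for the 15 multi-gene sets with the highest smaller eCLIP share, in order. The choice by eCLIP share favours high eCLIP points. Both lie right of both input points for 9 of the 15 sets, against 25.1% of all 581 multi-gene sets tested, and for the sets on chromosome 7 and on the minus strand of chromosome 22 both lie left of both inputs.

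The multi-gene set with the highest smaller eCLIP share was a nested pair on the plus strand of chromosome 6, with members from 10748267 to 10930366. It held 198 and 35 eCLIP intervals, which is 4.31 and 8.94 per 10000, against 8 and 2 input intervals, which is 1.33 and 1.91 per 10000. Its members carried 1169 and 167 eCLIP reads against 38 and 7 input reads. Both eCLIP libraries were above both inputs, and the log2 difference was 1.68 (SE 0.83, limma adjusted p = 0.993). Of the lines of its longer gene, 82.8% in eCLIP replicate 1 were members, and of those of the shorter gene 99.5%.

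Other sets showed the same order without passing the test. The staggered pair at chr19:48112522-48205917 (plus strand) held 173 and 24 eCLIP intervals against 9 and 1 input intervals (3.77 and 6.13 versus 1.49 and 0.954 per 10000). The nested pair at chr22:45133213-45257545 (plus strand) held 148 and 24 eCLIP intervals against 6 and 1 input intervals (3.22 and 6.13 versus 0.996 and 0.954 per 10000), with a log2 difference of 1.75 (SE 0.82, limma adjusted p = 0.993). In both places the 2 eCLIP shares were at least 2 times as high as either input share. With touching intervals merged this no longer held for the chromosome 19 pair, at 3.79 and 5.98 versus 2.03 and 0.979 per 10000.

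On the minus strand of chromosome 15, the staggered pair from 75819855 to 75871579 held 117 and 28 eCLIP intervals against 9 and 1 input intervals (2.55 and 7.15 versus 1.49 and 0.954 per 10000), and 11 of the intervals found in both eCLIP libraries and neither input. The second arm of the chromosome 10 bridging gene, from 126437377 to 126478869, held 102 and 26 eCLIP intervals against 9 and 2 input intervals (2.22 and 6.64 versus 1.49 and 1.91 per 10000), and 10 of those intervals. Of all lines of its longer gene, the bridging gene, 100% in eCLIP replicate 2 and 93.3% in eCLIP replicate 1 were members. These shares take in members of other gene sets, such as those with the other partner. Both pairs lie on the minus strand, where input 1 is raised by touching intervals. With touching intervals merged its shares there were 1.13 per 10000 in each pair.

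In other sets a single library broke the order. The nested pair at chr19:28985328-29093247 (minus strand) held 151 and 19 eCLIP intervals against 39 and 0 input intervals (3.29 and 4.85 versus 6.48 and 0 per 10000), so the inputs lay on either side of eCLIP. The staggered pair on the plus strand of the same chromosome from 58742184 to 58788549 held 120 and 41 eCLIP intervals against 9 and 11 input intervals (2.61 and 10.5 versus 1.49 and 10.5 per 10000). It had 11 intervals found in both eCLIP libraries and neither input. Its share was alike in the 2 libraries numbered 2 and differed between the 2 libraries numbered 1. A nested pair nearby, from 58331512 to 58367456, held 101 and 21 eCLIP intervals against 8 and 5 input intervals (2.20 and 5.36 versus 1.33 and 4.77 per 10000). The staggered pair at chr12:12879378-12942986 (plus strand) held 99 and 21 eCLIP intervals against 5 and 3 input intervals (2.16 and 5.36 versus 0.830 and 2.86 per 10000). In both of these pairs input 2 lay between the 2 eCLIP libraries. By reads in members, both eCLIP libraries lay above both inputs in 3 of these 4 sets. The values per 10000 reads were 4.47 and 9.89 versus 1.30 and 4.38 for the pair from 58742184, 3.65 and 4.53 versus 1.13 and 1.73 for that from 58331512, and 2.30 and 3.70 versus 0.713 and 0.917 for that on chromosome 12. In the first set described, from 28985328, they were 5.16 and 3.23 versus 5.62 and 0, and the inputs again lay on either side.

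The remaining sets of the 15 with both eCLIP libraries above both inputs lay on chromosomes 5, 22, 15 and 12. The nested pair at chr5:139784375-139927626 (plus strand) had shares of 2.83 and 4.60 per 10000 eCLIP intervals against 2.66 and 0.954 per 10000 input intervals, and with touching intervals merged input 1 stood at 3.16 and no longer below both. The staggered pairs at chr22:24667119-24813394 (plus strand), and at chr15:64473883-64648011 (minus strand) had log2 differences of 0.56 and 0.93. That at chr12:56151558-56210702 (minus strand) had one of 0.67, and all 4 had a limma adjusted p of 0.993.

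For 2 of the 15 sets the inputs were higher. The nested pair at chr7:139027961-139107013 (plus strand) held 109 and 12 eCLIP intervals against 22 and 6 input intervals (2.38 and 3.06 versus 3.65 and 5.72 per 10000). Its strongest member, at the end of the pair from 139106978 to 139107013, had 52 reads and came from input 2. The pair with identical spans at chr22:19347408-19434898 (minus strand) held 103 and 9 eCLIP intervals against 15 and 3 input intervals (2.24 and 2.30 versus 2.49 and 2.86 per 10000). With touching intervals merged, input 1 had 1.81 per 10000 there and no longer lay above the eCLIP libraries. Neither set passed the test (limma adjusted p = 0.993 and 0.994).

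The 5 multi-gene sets with the lowest p among the higher ones had members in both eCLIP libraries, and neither input had an interval under exactly that combination of genes. First was the staggered pair of ENSG00000160551.5 and ENSG00000266111.1 at chr17:27718580-27730470 (plus strand), with 41 and 13 intervals and 357 and 49 reads in eCLIP. Its log2 difference was 2.21 (SE 0.87, limma adjusted p = 0.993). Its longer gene was on 238 and 43 eCLIP lines against 12 and 2 input lines, and 17.2% and 30.2% of these lines were members in eCLIP against 0% in the inputs. A staggered pair at chr7:43921056-43946068 (minus strand) held 55 and 8 intervals in eCLIP, and a nested pair at chr12:54384643-54410904 (plus strand) held 41 and 10. Both genes of the chromosome 12 pair were on 5 and 1 input lines, against 92 and 28 eCLIP lines for the longer one, and 100% of the input lines were members of other gene combinations. A staggered pair at chr16:70381033-70399099 (plus strand) held 29 and 11, and a set of 3 genes at chr19:16689447-16738146 (minus strand) held 62 and 5. In these 4 the log2 differences lay between 1.86 and 2.06, each with a limma adjusted p of 0.993. With both inputs at 0, these values are set by the pseudocount: they lay between 3.82 and 4.06 with a pseudocount of 0.1 and between 1.21 and 1.38 with 1.

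Among the lower sets the lowest p belonged to the staggered pair of ENSG00000165548.6 and ENSG00000259164.1 at chr14:77609559-77686467 (plus strand). It held 7 and 0 eCLIP intervals against 7 and 2 input intervals (0.153 and 0 versus 1.16 and 1.91 per 10000), a log2 difference of -1.81 (SE 0.85, limma adjusted p = 0.993). A nested pair at chr15:57178171-57210508 (minus strand) had 34 intervals in input 1, with 178 reads, and 0 in each of the other 3 libraries. Its longer gene was on 17 lines in eCLIP replicate 1, and 0% of them were members. Without input 2 the log2 difference of the set was -3.62, and it then rested on input 1 alone. With touching intervals merged, input 1 still had 7.67 per 10000 there, against 0 in both eCLIP libraries.

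In 3 further sets on the lower side the share was highest in input 2. The pair with identical spans at chr13:46933224-47008456 (minus strand) held 4 and 1 intervals in eCLIP and 3 and 4 in the inputs, with 0.560 and 0.555 against 4.40 and 6.82 per 10000 reads. Its reads in input 1 came mostly from 1 interval of 82 reads, from 46948614 to 46948673. The set of 3 genes at chr19:39432556-39438919 (minus strand) held 7 and 2 eCLIP intervals against 4 and 5 input intervals (0.153 and 0.511 versus 0.664 and 4.77 per 10000). By reads its libraries interleaved, at 0.452 and 1.89 against 0.587 and 2.75 per 10000 reads. The nested pair at chr18:47015629-47018688 (minus strand) held 6 and 5 against 6 and 5, and by share the libraries interleaved, at 0.131 and 1.28 against 0.996 and 4.77 per 10000.

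Along the span of the longer gene, members were most frequent in the first part and less frequent in the middle. Spans of at least 5 kb with at least 20 intervals over the 4 libraries were cut into 10 equal parts. A span runs from the first to the last peak of its gene, so both end parts hold a peak by definition. How far this raised their shares was not tested. The first part held 19.0% (18.4 to 19.6) and 18.6% (17.1 to 20.2) of members in eCLIP, against 20.1% (18.5 to 21.7) and 18.7% (15.7 to 22.2) in the inputs, and the sixth part held between 5.14% and 7.42%. The last part held 11.5% (11.0 to 11.9) and 11.9% (10.7 to 13.3) in eCLIP against 15.5% (14.1 to 17.0) and 16.1% (13.3 to 19.5) in the inputs, so both eCLIP libraries lay below both inputs, with a mean difference of -4.14 percentage points (exact permutation test, p = 0.33, the smallest this design allows). Intervals of 1 gene had the same order in that part, at 9.54% and 8.47% of eCLIP intervals against 13.6% and 15.1% of input intervals. In the first part the share of members was above that of intervals of 1 gene in every library, though within counting error in input 2. Intervals of 1 gene stood there at 15.8% and 15.7% in eCLIP and 13.4% and 17.3% in the inputs. The place of the overlap within the longer gene sets where members can lie, and its part in this pattern was not tested.

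**Figure D4:**
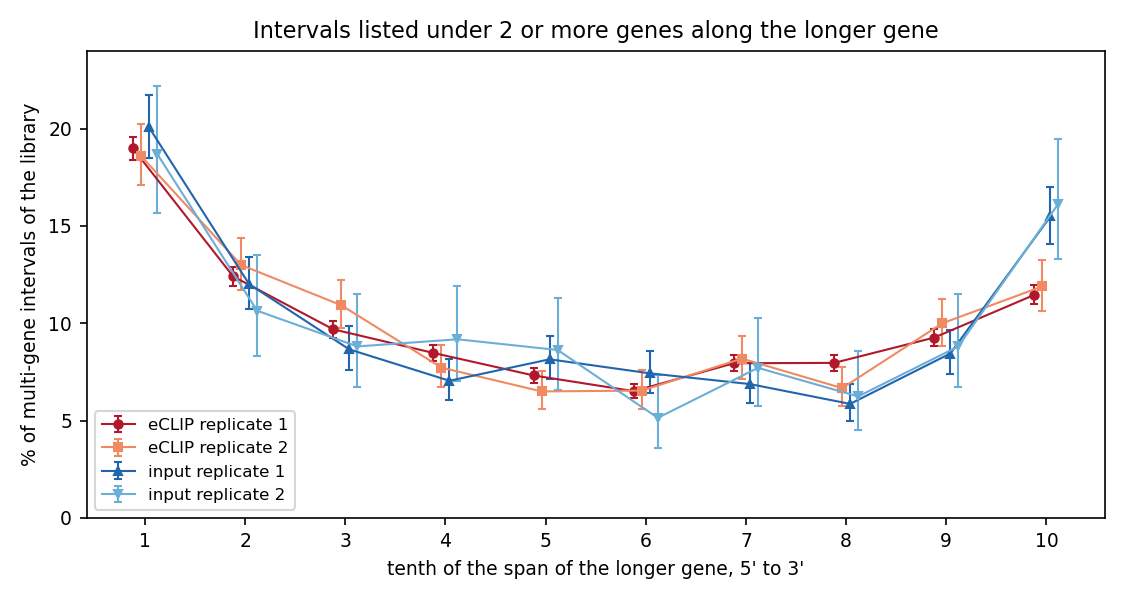
Share of the members of each library in each of 10 equal parts of the longer gene that lists them, from 5′ to 3′, with Wilson 95% intervals. The parts divide the span from the first to the last peak of that gene, so the end parts hold a peak by definition. Shares are highest in the first part, from 18.6% to 20.1%, and in the last part the 2 eCLIP libraries (11.5% and 11.9%) lie below the 2 inputs (15.5% and 16.1%).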

How the data were processed

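Peak lists of 2 eCLIP libraries and 2 size-matched inputs were used. Per the submitters' processing notes, the tools were cutadapt, STAR and SAMtools and the build was hg19. Tool versions, the peak caller and the gene models were not given in the sources used here. One list per library was deposited by the authors, with a p-value of at most 0.05 for each peak and a score that never passes 1000. On 595378 of 595484 lines the deposited score was minus 10 times the log10 of the p-value, rounded down and held at 1000. Each peak's name closes with a whole number, taken here as its reads although the files do not say so. Sequencing depth is unknown.

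The deposited coordinates, which start at 0, were turned into positions that start at 1. Lines with the same chromosome, start, end and strand were taken as 1 interval, and an interval with 2 or more gene identifiers as a member. All 17764 gene identifiers were looked up among the 59792 genes of the reference table, of which 0 carry an Ensembl identifier, so no gene was named, the planned classes of genes by symbol were not formed, and regions are given by position. Overlap between libraries meant at least 1 shared base on the same strand. Each interval was assigned to its gene set, the 1 gene or combination of genes that lists it. The 8707 gene sets with at least 10 intervals over the 4 libraries entered a fit in limma 3.58.1 (R 4.3.3) (two-sided, with a mean-variance trend in eBayes) on log2(intervals per 10000 intervals + 0.5), with Benjamini-Hochberg adjustment over all of them and a threshold of 0.05. A number of intervals is no read count, and count models were left out. In simulated data for this comparison, limma found 14% of 200 sets changed 4-fold and 38.5% of 200 changed 16-fold with counting noise alone, and 1% and 29.5% with a log2 SD of 0.612 added for the spread between libraries, which already holds counting noise.

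Single values were compared with two-sided exact permutation tests over libraries, in which 2 against 2 cannot give a p below 0.33 and sign changes over 4 libraries cannot give one below 0.125. Intervals of shares are Wilson 95% intervals and describe counting error alone. Whether libraries 1 and 2 were grown as separate cultures is not in the labels, and p-values then measure the spread between libraries, which may be technical. The text names the 15 multi-gene sets with the highest smaller eCLIP share, the 5 with the lowest p in each direction, the 5 with most intervals in both eCLIP libraries and neither input, and the 5 intervals with most reads in eCLIP replicate 1 that were found in eCLIP replicate 2. The members and these rules were chosen with earlier results of these data known. Alternatives changed the pseudocount, filter, p-value limit, reads, overlap rule, merging of touching intervals, replicate block and libraries used.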

Additional observations from a re-analysis of the deposited data

How the results depend on the processing

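The share of members had no stable direction. Its difference of -0.0596 percentage points turned to 0.977 when lines needed a p-value of at most 0.001, 0.384 with more than 3 reads, and, in 2 alternatives added after seeing the data, 1.47 when the lowest p-value had to be at most 0.001 and 1.51 in lists of equal length. It stayed below 0, at -0.718 with any overlap counted as shared and -0.416 with touching intervals merged. Leaving out 1 library gave -1.21 to 1.09. In limma the calls over all gene sets were 0 in each direction under every alternative but 3. With the replicate block, 4 sets were higher and 0 of them multi-gene. Leaving out 1 library gave 0 to 739 higher sets, 0 to 75 of them multi-gene, with the highest values without eCLIP replicate 2, and 0 to 1 lower sets, multi-gene, with the 1 without input 2. The lone library of a group was then assumed to vary like the other group. Labels of same-numbered libraries share a number and do not say whether these libraries were paired. Their deviations from the group means correlated at r = 0.381. The libraries numbered 1 correlated at r = 0.720 and those numbered 2 at r = 0.526, against 0.642 for the eCLIP pair and 0.401 for the input pair. The main fit had no replicate block. At p-values of at most 0.001, the median reads of members were 10 and 7 in eCLIP and 5 and 8 in the inputs, 3.09% of members of eCLIP replicate 1 met eCLIP replicate 2, and 125 met it and neither input. With overlap of 0.5 of the shorter interval, 3.58% of members of eCLIP replicate 1 and 31.6% of eCLIP replicate 2 met the other, and 26.8% of eCLIP replicate 2 did when gene sets had to be identical. For the 27 named sets, 300 of 313 alternative values kept their direction. This count includes values that could not change. Both changes of filter and the replicate block leave each log2 difference as it is. In sets with no interval in either input, so does leaving out 1 input. The pair on chromosome 19 from 1579813 turned to -0.065 with a pseudocount of 0.1 and -0.0044 with touching intervals merged, and that on chromosome 22 from 19347408 to 2.05 at p-values of at most 0.001 and 0.15 by reads. Leaving out 1 library turned 5 sets, over ranges of -1.15 to 1.17 (chromosome 19 from 1579813), -0.94 to 1.12 (chromosome 12 from 110825369), -0.91 to 1.55 (chromosome 19 from 58742184), -0.63 to 3.17 (chromosome 19 from 28985328) and -0.41 to 1.12 (chromosome 19 from 58331512). Without eCLIP replicate 2 the log2 difference of the set on chromosome 16 from 70381033 was 1.18, against 1.95 in the main fit. For the set on chromosome 15 from 57178171 it was -3.62 without input 2, against -1.81 in the main fit. The cause of these changes was not tested. Differences in list length and the few intervals of input 2 limit all comparisons by gene set.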
